A study of Bos taurus and Bos grunniens and Bubalus bubalis with 15 samples.

Results

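Back muscle of yak was compared with back muscle of Qinchuan steers and cows on 9 of the 15 arrays of the study. The 9 arrays were 3 of Qinghai yak, 3 of castrated males (steers) and 3 of females (cows) of Qinchuan cattle, a Chinese beef breed. Every animal was 36 months old, no group received a treatment, and each array read the longissimus dorsi, a long back muscle along the spine, of an animal that the labels call a biological replicate. The sex of the yak is not given, and the shared birth period, genetic background and rearing are stated for the Qinchuan cattle only. Species, herd, place and feeding therefore cannot be told apart in any difference below. The 3 bulls (intact males) were left out because they stood apart in matrix and macrophage genes. That choice was made with values of these data known, and it bears on those genes below. As a second species, 3 water buffalo from Guangxi, of the same age and muscle, were used. The values are hybridisation intensities of 24128 probe sets on a bovine array, so no depth applies and precision is set by how many arrays were run.

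The yak is a bovid of high pasture on the Qinghai-Tibetan plateau, where oxygen is thin and winters are long, and it interbreeds with domestic cattle. Back muscle is mostly made of muscle fibres. Slow fibres burn fuel with oxygen and carry their own set of myosin chains and calcium pumps, fast fibres rely more on glycolysis, and both lie in a mesh of collagen and basement membrane that also holds fat cells, vessels and nerves. The probes of the array hold cattle sequence. Where a probe set is lower in yak, less RNA and a yak sequence that binds the probes less well cannot be told apart from that probe set.

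On the first principal component of the 9 arrays, which held 52.3% of the variance, the yak lay at 43.7, 38.2 and 29.5 and the 6 cattle arrays between -25.1 and -15.0. Steers and cows separated on the second, which held 12.9%. Over the probe sets, which do not count as independent replicates, arrays correlated with a median of 0.983 within the yak, 0.975 within the steers, 0.972 within the cows, 0.968 between steers and cows and 0.934 between yak and cattle. Array medians of log2 intensity lay between 6.71 and 6.74 in yak and between 6.73 and 6.78 in cattle. Actin control signal at the 3' end over that at the 5' end, which grows as RNA is degraded, was 1.93, 1.51 and 1.49 in yak and 1.22 to 1.33 in cattle, a difference of 0.382 (exact permutation test, two-sided, p = 0.0238, the smallest that 3 against 6 arrays allow). For GAPDH the ratio was 1.20 to 1.26 against 1.17 to 1.20, a difference of 0.0485 with the same exact p of 0.0238. These control probe sets also hold cattle sequence, and the part of RNA quality in the results was not tested.

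**Figure D1:**
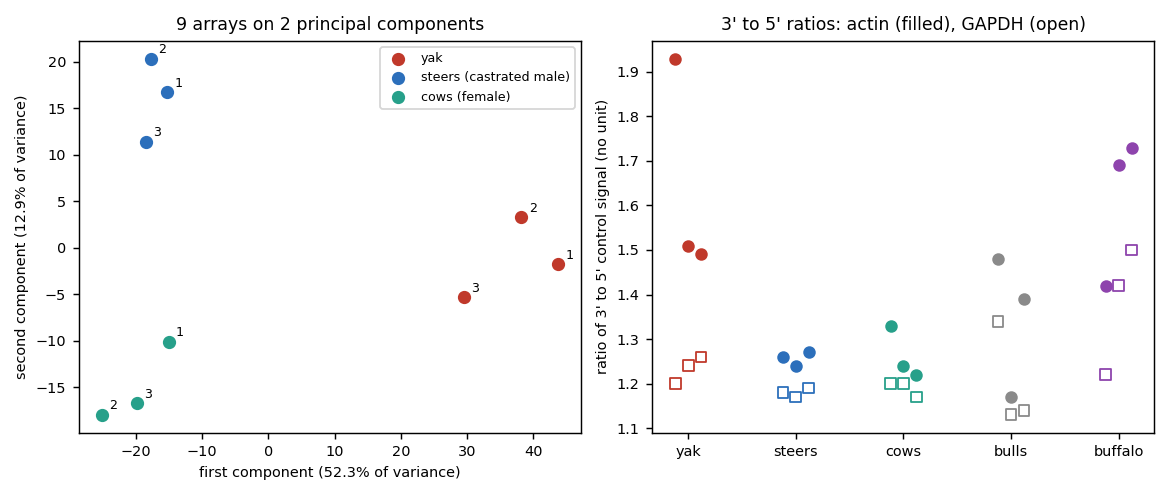
Left, the 9 arrays on the first and second principal components of log2 intensity, numbered by replicate, with the share of variance on each axis. The 3 yak arrays lie at 29.5 to 43.7 on the first component and the 6 cattle arrays at -25.1 to -15.0. Right, the ratio of 3' to 5' signal of the actin (filled) and GAPDH (open) control probe sets on all 15 arrays, 1 point per array. Every yak actin ratio lies above every steer and cow ratio.

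Yak muscle differed from that of steers and cows at 4065 of the 14409 probe sets bright enough to test, 28.2% of them (limma, Benjamini-Hochberg adjusted p under 0.05). Of these, 1859 were higher in yak, 12.9% of those tested, and 2206 were lower, 15.3%. At least 2-fold differences were called at 251 probe sets in the higher direction (1.74%) and at 370 in the lower (2.57%). By the same rule 8 probe sets differed between cows and steers (0.0555%). The yak and cattle arrays did not overlap at 3901 probe sets (27.1%). Every yak array lay above every cattle array at 1784 probe sets (12.4%) and below every one at 2117 (14.7%). With each gene represented by its brightest probe set, 2049 of 7101 genes were called (28.9%), 973 higher (13.7%) and 1076 lower (15.2%), and the median difference over all genes was -0.01. Differences are on the scale of log2 of intensity plus 16, which understates those of dim probe sets. The count of called probe sets fell most without yak 1 or yak 2, to 2353 and 2358. It was 3567 without yak 3, against 3353 to 4117 without 1 cattle array.

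The genes furthest above cattle in yak included enzymes of monoamine, D-amino acid and lipid metabolism. MAOA, the mitochondrial enzyme that oxidises serotonin and noradrenaline, read 1189, 1166 and 796 in the 3 yak and 64.8, 117 and 287 as the lowest, median and highest of the 6 cattle. Every yak lay far above the highest steer, and the difference was 7.69-fold (2.94 ± 0.30, log2 ± SE, adjusted p = 0.000215). ARMC2, an armadillo repeat protein needed to build the sperm tail, read 777, 567 and 243 in yak and 11.4, 37.6 and 93.3 in cattle. It had the largest ratio among the genes higher in yak, 9.94-fold (3.31 ± 0.36, adjusted p = 0.000317), but most cattle values lay below 67.8, the mean intensity a probe set had to pass to be tested, so the size of the fold is uncertain. DDO, the peroxisomal enzyme that oxidises D-aspartate, read 2037, 2711 and 1094 against 227, 312 and 710, a 4.99-fold difference (adjusted p = 0.00137).

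Genes of lipid handling stood among the same 15. SLC27A6, a fatty acid transport protein, read 1741, 1806 and 1439 in yak and 237, 293 and 801 in cattle. It was 4.21-fold higher (2.07 ± 0.41, adjusted p = 0.00575), and the yak arrays lay close together while 1 steer and 1 cow were well above the other cattle. MTTP, which loads lipid onto apolipoprotein B, read 324, 541 and 205 against 55.1, 61.9 and 90.4, a 4.25-fold difference (adjusted p = 0.000452). VNN1, a pantetheinase of coenzyme A turnover, read 801, 1072 and 1032 against 114, 200 and 318. It was 4.46-fold higher (adjusted p = 0.000586).

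The remaining genes of that rank were of mixed kind. SLC25A33, the mitochondrial carrier of pyrimidine nucleotides, was 4.3-fold higher, at 1862, 1012 and 900 in yak against 157, 259 and 442 in cattle. The transcription factor CEBPD read 8020, 6737 and 5281 in yak, 2304 to 3516 in steers and 381 to 1230 in cows. Its 4.39-fold difference (adjusted p = 0.00129) was called against cows alone and missed the threshold against steers alone (adjusted p = 0.0513). GALK2, a kinase of N-acetylgalactosamine, varied most among the yak, at 1031, 602 and 186, against a highest cattle value of 117. DISP1, which releases Hedgehog proteins from cells, was 3.99-fold higher, KIF22, a chromosome-binding kinesin, 3.79-fold, and DKK1, a secreted Wnt antagonist, 3.75-fold. STMN2, a microtubule regulator of neurons, read 181 to 301 in yak and 29.0 to 66.1 in cattle, where every array was below that level of 67.8. GPA33, a surface protein of gut epithelium, was 3.97-fold higher and ARRDC2, an arrestin domain protein, 4.0-fold.

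The genes furthest below cattle, ranked by the same rule, were led by muscle genes. MYL3, the essential myosin light chain of slow fibres and of the heart ventricle, read 111, 714 and 282 in yak and 3576, 5506 and 9739 in cattle. No yak array came near the lowest cow, and the difference was 18.1-fold (-4.18 ± 0.44, adjusted p = 0.000259). NMRK2, a muscle kinase that makes NAD from nicotinamide riboside, read 424, 368 and 432 against 4067, 5734 and 8710. It was about 14-fold lower (-3.81 ± 0.24, adjusted p = 1.58e-05), with yak values much closer together than those of cattle. MYBPH, myosin-binding protein H of the thick filament, read 390, 131 and 320 against 942, 1679 and 2743, 6.01-fold lower (adjusted p = 0.00134). METTL21E, a methyltransferase of skeletal muscle, read 26.2, 57.1 and 70.1 against 120, 338 and 590, 4.91-fold lower (adjusted p = 0.00716).

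MSRA, the enzyme that repairs oxidised methionine, had the smallest p among the named genes. It read 374, 355 and 312 in yak and 2397, 2589 and 2865 in cattle, 7.22-fold lower (-2.85 ± 0.09, adjusted p = 2.24e-07). PKIG, an inhibitor of protein kinase A, read 146, 162 and 139 against 896, 1157 and 1471, 7.0-fold lower (adjusted p = 9.56e-06). DLC1 read 29.7, 34.1 and 31.6 against 228, 308 and 402, 6.79-fold lower (adjusted p = 2.34e-06). In all 3 genes both species held tight ranges. COL3A1, the chain of type III collagen, was 4.71-fold lower, at 415, 574 and 554 in yak against 1807, 2674 and 2950.

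For 8 of the 15 genes ranked furthest below cattle, DLC1 among them, every yak array lay below the 67.8 that a probe set's mean had to pass. Their folds thus rest on dim yak values. CIDEC, which fuses lipid droplets in fat cells, read 29.3 to 44.0 in yak and 130 to 911 in cattle, and ACSM1, a mitochondrial acyl-CoA synthetase, 11.9 to 38.4 against 91.1 to 842. FRZB, a secreted Wnt antagonist, was 6.17-fold lower, WDR70 4.83-fold and INSIG1, which helps hold the sterol regulator SREBP in the endoplasmic reticulum, 4.1-fold. The proteoglycan SPOCK2 (4.79-fold lower, adjusted p = 0.0243) and the iodotyrosine deiodinase IYD (4.61-fold, adjusted p = 0.0147) had cattle ranges of 43.8 to 726 and 54.0 to 633, the widest of the 15 as ratios. SPOCK2 lost its call without any 1 of the 3 yak and against steers alone, and IYD without yak 1 or yak 2 and against cows alone.

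**Figure D2:**
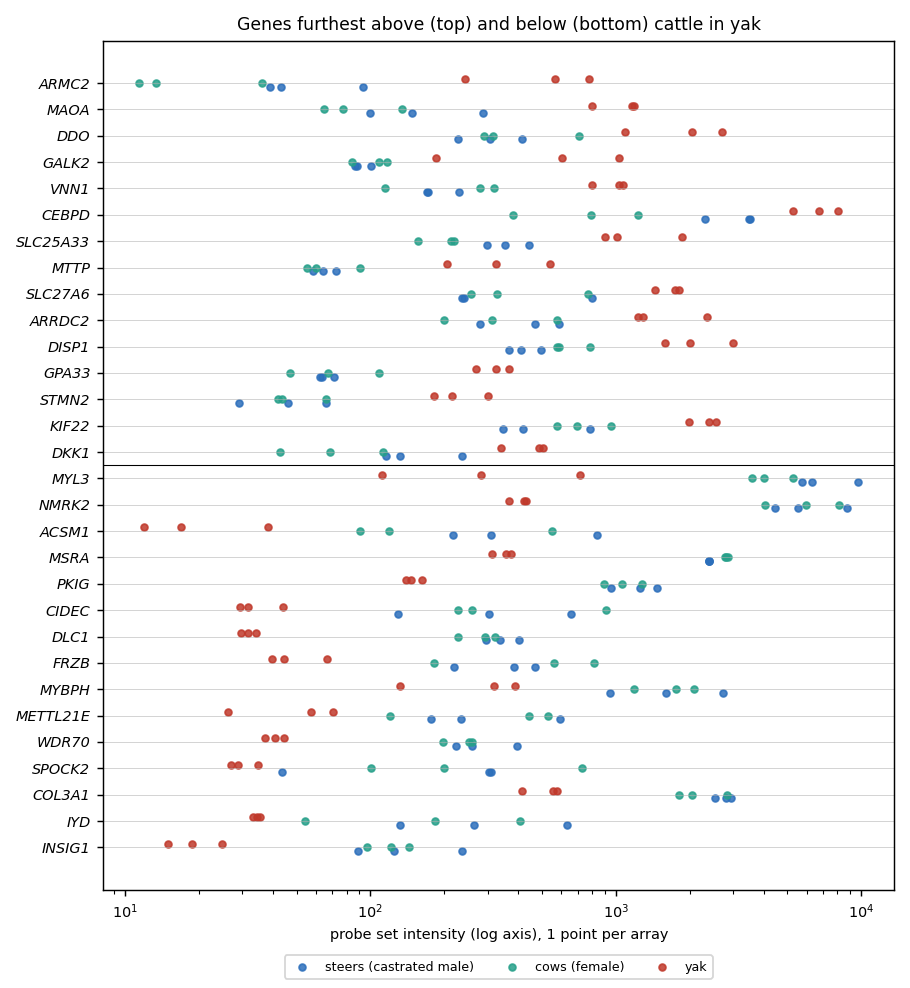
Intensity on a log axis, 1 point per array, with yak in red, steers in blue and cows in green. Among called genes without overlap, the 15 furthest above cattle in yak are in the upper part and the 15 furthest below in the lower part. By the naming rule the red points of each gene lie apart from all blue and green ones, and NMRK2 runs from 432 in the highest yak to 4067 in the lowest cattle array.

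Genes with several probe sets gave a check within the array, since their probe sets read different stretches of 1 transcript. Of the 30 genes above, 8 had more than 1 tested probe set, and in all 8 another probe set was called the same way. DISP1 gave 2.00 and 2.58, VNN1 2.16 and 2.21, SLC25A33 2.10 and 1.99, MYBPH -2.59 and -2.72, COL3A1 -2.23 and -2.77, and CEBPD 2.13, 2.82 and 2.09. ARRDC2 gave 2.00 and 1.29, and WDR70 gave -2.27 and -0.51, the widest split of these genes. MAOA, MYL3, NMRK2, MSRA and PKIG each rested on 1 tested probe set. Over all called genes with several tested probe sets, 492, another was called in the same direction in 220 and in the opposite direction in 19, some genes counting in both. In 257 no other probe set was called. For genes called higher, another agreed in 121 of 246 and was opposite in 9, and for genes called lower in 99 of 246 and 10.

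Most slow fibre genes tested were lower in yak. Of 13, 9 were called lower, 69.2% against 15.2% of all genes, with a median difference of -0.37 against -0.01. PLN, phospholamban, which brakes the slow calcium pump, read 1451, 1265 and 1682 in yak and 2874, 3232 and 3563 in cattle, 2.21-fold lower (-1.14 ± 0.11, adjusted p = 0.000158). LMCD1, a LIM protein of muscle, read 438, 405 and 353 against 667, 935 and 1170, 2.18-fold lower (adjusted p = 0.00145). The ranges of both genes were apart by a wide margin. MYL3 is described above, and the others were small: MYOZ2 of the Z disc (-0.60), the slow myosin heavy chain MYH7 (-0.56), slow troponin T TNNT1 (-0.52), TPM3 (-0.36), the calcium pump ATP2A2 (-0.33) and the regulatory light chain MYL2 (-0.18). Slow troponin C TNNC1 was not called (-0.10, adjusted p = 0.101). For ATP2A2 a second bright probe set was also called lower (-0.24), while of 2 dim ones the first was not called (-0.24) and the other was called higher (0.60). The count lay between 7 and 8 without any 1 array, and the summed slow fibre intensity was 68952 to 79517 in yak, 95343 to 113190 in steers and 89257 to 95827 in cows. In whole muscle, fewer fibres of a type and less RNA per fibre cannot be told apart.

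Fast fibre genes and the defining genes of skeletal muscle moved less. Of 13 fast fibre genes 2 were called lower, 15.4%, near the 15.2% of all genes, with a median of -0.20. Of the 13, however, 11 differed below 0. At an unadjusted limma p under 0.05, 9 were lower and 1 higher, against 10 and 0 of the 13 slow fibre genes. The 2 called were the glycerol-3-phosphate dehydrogenase GPD1, at 2533, 1840 and 2382 against 3976, 5518 and 6517, and the pump regulator SLN (-0.26). SLN lost its call without yak 2 and against steers alone, leaving 1, and 5 fast genes were called without steer 1 or cow 1 and against cows alone. The heavy chain MYH1 was not called (0.20, adjusted p = 0.116). Every muscle-defining marker was bright in yak, the lowest single value being 2835, and their sum was 161390 to 168480 in yak against 169580 to 184180 in cattle. Of 15 such genes 4 were called lower (26.7% against 15.2% of all genes) and 1 higher (6.67% against 13.7%). The lower genes were skeletal actin ACTA1 (-0.35), LDB3 (-0.42), ENO3 (-0.32) and myotilin MYOT (-0.23). The higher gene was the Z-disc cap protein TCAP (0.26). Without steer 2, cow 2, yak 1 or yak 2 the lower count was 2, without steer 1 or cow 1 it was 6, and TCAP and ENO3 were not called against steers alone, nor MYOT against cows alone. Myoglobin MB, the oxygen store of muscle, read 14169, 14164 and 13667 in yak and 13542, 14844 and 15335 in cattle, within 1 range (-0.05 ± 0.05, adjusted p = 0.46).

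Lower calls also stood in other parts of the contractile machine. Of 19 genes of sarcomere and Z disc 8 were called lower, 42.1% against 15.2% of all genes. PDLIM7, a scaffold of the actin cytoskeleton, read 3116, 2764 and 4379 against 6038, 7253 and 9414, 2.17-fold lower (adjusted p = 0.00144). ANKRD1, a stretch-responsive repeat protein of titin, read 3605, 3005 and 1734 against 4402, 6874 and 11388 (2.56-fold, adjusted p = 0.0119). Another ANKRD1 probe set overlapped and was not called (-1.13, adjusted p = 0.0526). The actin-capping subunit CAPZA2 was 1.47-fold lower. Without cow 2 the count was 4 and without steer 2, yak 1 or yak 2 it was 5, as against cows alone. Of 17 genes of calcium handling and excitation 9 were called lower, 52.9% against 15.2% of all genes. Among them were PLN, the calmodulin gene CALM3 (1.67-fold, 1 other probe set not called at -0.17), the calcineurin subunit PPP3R1 (1.78-fold) and the acetylcholine receptor subunit CHRNA1 (-0.92). That count was 5 without yak 2 and against steers alone, where PPP3R1 was not called and 1 gene was higher, as without yak 3. Of 10 myogenic genes 3 were lower (30%) and 1 higher (10%), against 15.2% and 13.7% of all genes. MYOD1, at 171, 148 and 231 against 259, 288 and 345, was 1.57-fold lower, and MYOG 1.43-fold. MYF6 was 2.36-fold higher (adjusted p = 0.0183), with ranges of 3875 to 6503 and 1279 to 4538 that overlapped. The MYF6 call was lost without yak 1 or yak 2 and against steers alone, a second gene was higher against cows alone, the call of MYOD1 was lost without yak 2, and that of SRF (-0.41) without any 1 of 6 arrays, steer 1, steer 3, cow 1, cow 2, yak 1 or yak 2 and against steers alone.

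Of 29 glycolysis genes 14 were called lower, 48.3% against 15.2% of all genes, 14 were not called and the median was -0.35. PKM, pyruvate kinase, read 2010, 1440 and 1774 in yak and 3845, 4233 and 5705 in cattle, 2.61-fold lower (-1.38 ± 0.15, adjusted p = 0.000276). GPI, glucose-6-phosphate isomerase, read 2040, 1597 and 1876 against 3499, 4658 and 6084, 2.6-fold lower (adjusted p = 0.000215). LDHB, the lactate dehydrogenase chain of oxidative tissue, read 1202, 1524 and 2066 against 2717, 4162 and 5392, 2.56-fold lower (adjusted p = 0.000591). None of these ranges overlapped. GPD1, given above, and 10 more were lower: PGAM1 (-1.24), PGK1 (-0.90), PGAM2 (-0.75), the fast-muscle lactate dehydrogenase chain LDHA (-0.74), the lactate exporter SLC16A3 (-0.72), phosphofructokinase PFKM (-0.71), ENO1 (-0.57), the glucose transporter SLC2A4 (-0.52), ENO3 (-0.32) and ALDOA (-0.16). GPD2, the mitochondrial partner of GPD1 in the glycerol phosphate shuttle, was higher, at 557, 491 and 448 against 201, 270 and 303 (0.90 ± 0.14, adjusted p = 0.00159). A second gene was higher without cow 2, cow 3 or yak 3. The lower count lay between 12 and 17 without 1 array and was 9 with all 15 arrays in the fit.

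Of 26 citric acid cycle genes 9 were called lower (34.6% against 15.2% of all genes) and 2 higher (7.69% against 13.7%). IDH3A, the catalytic chain of NAD-linked isocitrate dehydrogenase, read 1019, 1035 and 931 against 1606, 2137 and 2623, 2.13-fold lower (-1.09 ± 0.14, adjusted p = 0.000769). DLD, a shared subunit of the pyruvate and oxoglutarate dehydrogenases, was 1.69-fold lower, ACO1 1.63-fold and the succinate dehydrogenase anchor SDHD 1.54-fold. Citrate synthase CS differed by -0.40. The 2 higher genes were IDH2 (0.29) and PDK3 (0.51), and 1 of them was left without steer 2, steer 3, cow 2, cow 3, yak 1 or yak 2 and against steers alone.

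Respiratory chain genes stood near the median of all genes. Of 75 genes of oxidative phosphorylation 5 were called higher and 5 lower, 6.67% each, below the shares of 13.7% and 15.2% over all genes, and the median was -0.01. UQCR11 of complex III read 3709, 3782 and 4117 against 5714, 5978 and 6356 (1.55-fold lower, adjusted p = 0.00012), and SDHB of complex II was 1.2-fold lower. COX5B of complex IV was 1.17-fold higher, at 10440, 9940 and 9900 against 8224, 8706 and 9032, and the isoform COX8B differed by 0.42. Without 1 array the higher count was 2 without steer 2, cow 2 or yak 3 and 3 without steer 1, cow 3, yak 1 or yak 2, and the lower count was 3 without yak 1 or yak 2, 8 without cow 1 and 9 without steer 1. Against steers alone 2 were higher and against cows alone 3 lower.

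**Figure D3:**
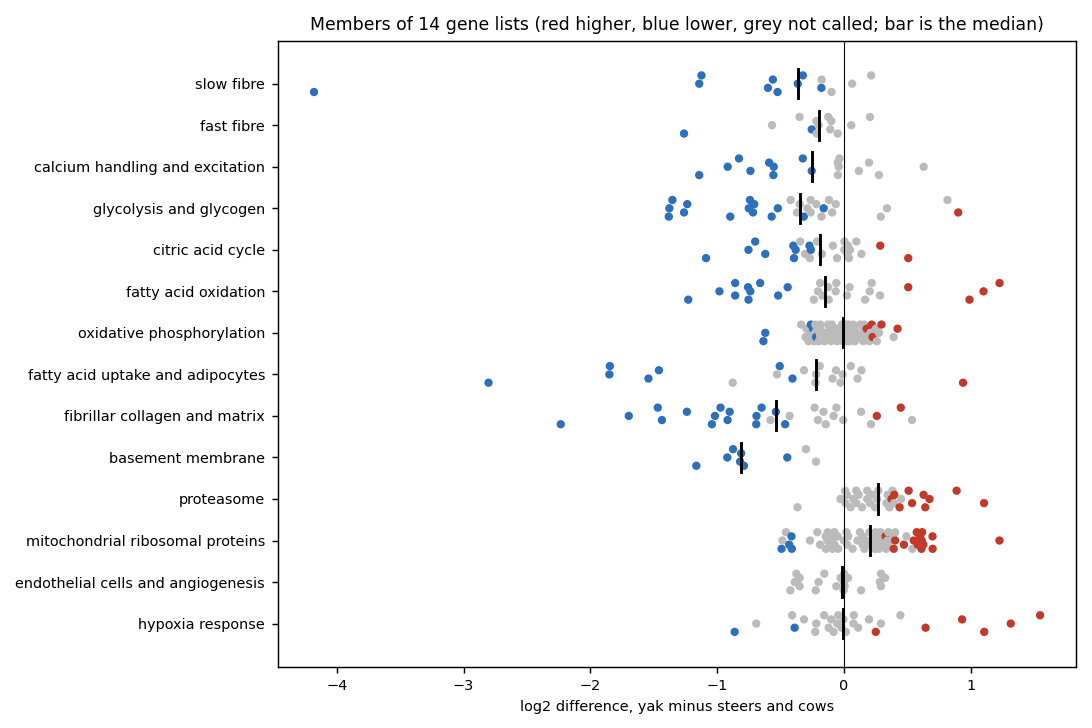
Difference between yak and the mean of steers and cows (log2 scale) for each tested member of 14 gene lists, 1 point per gene, red where called higher, blue where called lower, grey where not called. The black bar is the list median, at -0.37 for slow fibre, -0.35 for glycolysis, -0.81 for basement membrane and 0.27 for the proteasome.

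Of 28 genes of fatty acid oxidation 10 were called lower (35.7% against 15.2% of all genes) and 4 higher (14.3%, near the 13.7% of all genes). CRAT, carnitine acetyltransferase, read 723, 418 and 427 against 1049, 1212 and 1474, 2.34-fold lower (-1.23 ± 0.17, adjusted p = 0.00101), and CPT2, which releases acyl groups from carnitine in the mitochondrion, 159, 167 and 172 against 256, 295 and 315, 1.69-fold lower (adjusted p = 0.000446). The peroxisomal thiolase ACAA1 was 1.69-fold lower, and the trifunctional protein chains HADHA and HADHB differed by -0.74 and -0.44. ECI2, an isomerase for unsaturated acyl chains, went the other way, at 1054, 1315 and 1112 against 384, 495 and 564, 2.34-fold higher (1.23 ± 0.11, adjusted p = 0.000122). The other 3 higher genes were UCP2 (1.10), DECR1, a reductase for the same unsaturated chains (0.99), and ACAA2 (0.51).

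Of 21 genes of fatty acid uptake and adipocytes 7 were called lower (33.3% against 15.2% of all genes), 13 were not called and 1 was higher. FABP3, the fatty acid carrier of muscle and heart, read 477, 1159 and 1758 in yak against 2626, 3728 and 4409, 3.61-fold lower (-1.85 ± 0.33, adjusted p = 0.00326). LPL, the lipase that frees fatty acids at the vessel wall, read 217, 416 and 446 against 628, 1023 and 1458, 2.75-fold lower (adjusted p = 0.00203), and the uptake receptor CD36 was 1.42-fold lower. Yak 1 had the lowest value for FABP3 and LPL. The adipocyte genes CIDEC, ADIPOQ (-1.85), FABP4 (-1.54) and AGPAT2 (-0.41) completed the 7. PPARG, the regulator of fat cell formation, was not called (-0.03, adjusted p = 0.82). CIDEA, a lipid droplet protein, was higher, at 250, 262 and 212 against 101, 116 and 151 (1.92-fold, adjusted p = 0.000891). The summed intensity of the list was 8905 to 11367 in yak, 16404 to 18808 in steers and 14236 to 18723 in cows, so the part of fewer fat cells in these genes was not tested.

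Of 16 genes of fatty acid and sterol synthesis 5 were called lower (31.2% against 15.2% of all genes). They were INSIG1, the sterol enzyme HMGCS1, at 237, 269 and 252 against 425, 512 and 599 (1.94-fold, adjusted p = 0.000675), the desaturases SCD5 (1.59-fold) and SCD (-1.49), and the regulator SREBF1 (-0.75). FDFT1, squalene synthase, was 3.0-fold higher, at 1263, 1027 and 928 against 290, 323 and 435 (1.58 ± 0.13, adjusted p = 6.11e-05), with the lowest yak above the highest cattle value.

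Of 29 genes of fibrillar collagen and matrix 15 were called lower in yak (51.7% against 15.2% of all genes), with a median of -0.54. COL1A2, a chain of type I collagen, read 223, 334 and 285 in yak and 660, 967 and 1248 in cattle, 3.24-fold lower (-1.70 ± 0.16, adjusted p = 0.000158). SPARC, a collagen-binding protein of the matrix, read 421, 613 and 513 against 1088, 1387 and 1994, 2.77-fold lower (adjusted p = 0.000549), and COL6A1, a chain of the beaded collagen around fibres, 725, 727 and 567 against 1220, 1640 and 2023, 2.36-fold lower (adjusted p = 0.000714). With COL3A1, these 4 genes had no overlap. FN1 (-1.44), COL15A1 (-1.04), LUM (-1.02), DPT (-0.97), OGN (-0.92), COL5A2 (-0.90), PRELP (-0.69), FMOD (-0.69), DCN (-0.65), COL1A1 (-0.54) and PDGFRA (-0.47) made up the rest, and THBS2 (0.45) and TNC (0.26) were higher. The lower count was 9 without yak 1, and the higher count was 1 without any 1 yak and against cows alone. The summed intensity was 13563 to 15649 in yak, 25247 to 28151 in steers and 22487 to 25896 in cows.

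Basement membrane genes had the highest share of lower calls of the 41 lists, 7 of 9 (77.8% against 15.2% of all genes), and a median of -0.81. COL4A1, the core chain of basement membrane collagen, read 1031, 1453 and 981 against 1684, 2654 and 3651, 2.24-fold lower (-1.17 ± 0.20, adjusted p = 0.00271). The linker NID2 read 139, 206 and 148 against 271, 289 and 431 (1.83-fold, adjusted p = 0.00337), and the laminin chain LAMA4 127, 150 and 137 against 204, 262 and 309 (1.77-fold, adjusted p = 0.00181). LAMB2 (-0.92), the perlecan gene HSPG2 (-0.81), LAMB1 (-0.45) and the receptor DAG1 (1.73-fold lower, a second probe set at 0.06) were the others. Between 6 and 7 were called without any 1 array. Of 20 genes that process or degrade collagen 7 were lower (35% against 15.2% of all genes). PCOLCE, the enhancer of procollagen C-proteinase, led them, at 149, 197 and 183 against 579, 677 and 780 (3.6-fold, adjusted p = 2.67e-05). MMP9 was 1.69-fold lower, LOXL1 1.65-fold and TIMP2 1.43-fold, while another TIMP2 probe set was called higher (0.87). The count was 4 without yak 1 and 3 against cows alone, where LOXL1 was not called.

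Genes listed for the response to low oxygen did not share a direction. Of 28 tested 6 were called higher (21.4% against 13.7% of all genes) and 2 lower (7.14% against 15.2%), with a median of -0.01. The list left out the glycolysis genes called lower above, 14 of 29, which were counted in their own list. HMOX1, haem oxygenase, read 3177, 2889 and 1735 in yak and 582, 1110 and 1402 in cattle, 2.49-fold higher (1.31 ± 0.20, adjusted p = 0.00156). RORA, a nuclear receptor also in the clock, read 489, 344 and 225 against 74.0, 100 and 188, 2.92-fold higher (adjusted p = 0.00346), and DDIT4, an inhibitor of mTOR complex 1, 7857, 7454 and 6325 against 2437, 3399 and 4321, 2.15-fold higher (adjusted p = 0.00174). In these 3 genes every yak lay above every cattle array. MXI1 (0.93), CITED2 (0.64) and ARNT (0.25) were the other higher members. CYGB, cytoglobin, was 1.82-fold lower, at 244, 224 and 287 against 330, 464 and 617, and the transferrin receptor TFRC differed by -0.39. The lower count was 1 without yak 1 or yak 3 and 4 without steer 1 or cow 1, and with all 15 arrays in the fit 3 were higher, DDIT4 no longer among them.

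The transcription factors at the head of that response were not called. EPAS1, the factor HIF-2 alpha, read 1017, 1428 and 1081 in yak and 1023, 1430 and 1789 in cattle on its brighter probe set (-0.23 ± 0.19, adjusted p = 0.392) and differed by -0.09 on the other (adjusted p = 0.741). HIF1A read 281, 296 and 288 against 258, 321 and 441 (-0.22 ± 0.16, adjusted p = 0.323). The yak values of both genes lay within or beside the cattle range. VEGFA, the main growth factor of vessels, read 263, 249 and 268 against 286, 384 and 799 on 1 probe set, every yak below every cattle array, without passing the threshold (-0.69 ± 0.25, adjusted p = 0.0634), and 91.7, 85.8 and 94.6 against 76.1, 80.6 and 96.7 on the other (0.12, adjusted p = 0.289). None of the 20 endothelial genes was called by limma, with 1 higher and 2 lower at an unadjusted p under 0.05. Without steer 3 there were 2 lower calls and with the replicate block 1, and the summed intensity of 7176 to 9349 in yak overlapped the 7662 to 10268 of cattle. Of the haemoglobin gene HBB 1 of 4 probe sets was bright enough to test, and it was not called (0.15, adjusted p = 0.245).

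Genes of metal binding and defence against oxidants moved both ways. Of 7 metal genes tested 4 were higher (57.1%) and 2 lower (28.6%), against 13.7% and 15.2% of all genes. MT2A, a metallothionein, read 1593, 6991 and 3405 in yak against 294, 535 and 2442 in cattle (4.83-fold, 2.27 ± 0.46, adjusted p = 0.00582), with overlapping ranges, and the call was lost against steers alone, where the list count was 2. MT1A differed by 1.91, and its yak values of 207, 2194 and 1315 also spread widely. The ferritin chains FTL, at 6516, 5605 and 3802 against 2452, 3042 and 3726 (1.74-fold, adjusted p = 0.00389), and FTH1 (1.29-fold, adjusted p = 0.00262) were higher on every yak array. The metal importer SLC39A14 was 2.3-fold lower and TFRC is given above, 1 of these 2 calls being lost without yak 1 or yak 3. Of 34 oxidative defence genes 9 were lower (26.5%) and 4 higher (11.8%), against 15.2% and 13.7% of all genes. SOD1, cytosolic superoxide dismutase, read 2228, 2213 and 1981 against 2938, 3999 and 4414 (1.76-fold lower, adjusted p = 0.00217). MSRA, the glutathione peroxidases GPX1 (-1.70) and GPX4 (-0.51), SOD2 (-0.49), GSTK1 (-0.99), SELENBP1 (-0.91), MGST3 (-0.30) and NQO2 (-0.28) were the others. HMOX1, the regulator NFE2L2 (0.87), TXNRD2 (1.42-fold) and PRDX1 (0.34) were higher. Without any 1 yak the lower count was 5, and against cows alone it was 4.

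Of 34 proteasome genes 10 were called higher, 29.4% against 13.7% of all genes, and 24 were not called. In all, 32 of 34 had a difference above 0, with a median of 0.27. PSMA7, a ring subunit, read 11418, 10523 and 8705 in yak and 5840, 6539 and 7010 in cattle, 1.56-fold higher (0.64 ± 0.09, adjusted p = 0.000891). PSMC1, an ATPase of the cap, read 3146, 2425 and 2132 against 1286, 1348 and 1534, 1.85-fold higher (adjusted p = 0.00112), and PSME4, an activator that binds the ring's end, 3192, 2308 and 1980 against 963, 1126 and 1340, 2.15-fold higher (adjusted p = 0.00152). In each of these yak 1 was the highest array and yak 3 the lowest. The catalytic subunit PSMB5 was 1.45-fold higher, and PSMB2 (0.67), PSMD6 (0.63), PSMB1 (0.51), PSMB6 (0.44), PSMC5 (0.40) and the assembly factor POMP (0.37) completed the 10. The count was 4 without yak 1, 5 without yak 2 and 17 without yak 3.

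Of 23 other genes of protein breakdown 3 were lower and 3 higher, 13% each and no more than the shares of all genes (15.2% and 13.7%). FBXO32, the muscle ubiquitin ligase atrogin-1, read 1383, 1345 and 1165 against 3081, 3254 and 6130, 2.88-fold lower (-1.52 ± 0.16, adjusted p = 0.000294), and the autophagy gene ATG12 was 1.69-fold lower. MAP1LC3B, the autophagosome marker LC3B, read 5033, 4384 and 4012 against 2215, 2998 and 3392, 1.55-fold higher (adjusted p = 0.00273). FBXO40 (-0.79) was the third lower gene, and SQSTM1 (0.27) and UBE2G1 (1.27-fold) were also higher. The higher count was 1 without yak 1, 5 without steer 1 and 6 without yak 3. Among 29 growth genes 8 were lower (27.6%) and 3 higher (10.3%), against 15.2% and 13.7% of all genes. FST, follistatin, which binds myostatin, read 116, 167 and 155 against 310, 436 and 522, 2.74-fold lower (-1.45 ± 0.17, adjusted p = 0.000416). TGFB2 was 1.75-fold lower and IGFBP7 1.55-fold. STAT5B, which carries the growth hormone signal, read 1060, 910 and 541 against 150, 174 and 412, 3.67-fold higher (adjusted p = 0.00255). Myostatin MSTN read 59.4, 28.0 and 82.0 against 30.8, 120 and 292 and was not called (-0.83, adjusted p = 0.0515). In this list 1 gene was higher without yak 1, and 5 were lower without yak 2 and against cows alone.

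Of 67 mitochondrial ribosomal proteins 15 were called higher (22.4% against 13.7% of all genes) and 4 lower (5.97% against 15.2%), 48 were not called and the median was 0.21. MRPL57 read 1126, 953 and 908 against 362, 419 and 468, 2.34-fold higher (1.23 ± 0.11, adjusted p = 0.000129). MRPL11 was 1.62-fold higher and MRPL55 1.53-fold, while MRPL53 was 1.33-fold lower. The lower count was 1 without yak 2, 2 without yak 1 or yak 3 and 2 against steers alone. Cytosolic ribosomal proteins differed little, with 9 of 62 higher (14.5%), 5 lower and none beyond 0.32 in size. RPL5, at 9740, 9195 and 9270 against 7800, 8022 and 8387, was 1.17-fold higher (adjusted p = 0.00682). The higher count was 1 without yak 2, 2 without yak 1, 4 without yak 3 and 5 without steer 2, against cows alone or without the trend in the model. The lower count was 0 without yak 1 or yak 3, 1 without yak 2, 3 without cow 3, 2 against either cattle sex alone and 0 without the trend. Of 41 translation factors 7 were higher (17.1%) and 6 lower (14.6%), near the 13.7% and 15.2% of all genes. EIF3A read 2142, 1922 and 1880 against 1010, 1140 and 1514 (1.67-fold higher, adjusted p = 0.00316), and EIF3J 1254, 1275 and 1305 against 1967, 2140 and 2316 (1.67-fold lower, adjusted p = 0.000446). Without yak 1 or yak 2 the higher count was 3.

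Genes of early response and stress gave large differences in single members. Of 28 tested 4 were higher (14.3%), near the 13.7% of all genes, while the median was 0.50. MYC read 781, 692 and 441 in yak against 69.4, 201 and 329 (3.19-fold higher, 1.67 ± 0.27, adjusted p = 0.00205), and CEBPB 668, 677 and 522 against 320, 338 and 402 (1.73-fold, adjusted p = 0.00107). CEBPD is given above, and the fourth, NR4A2, differed by 2.16 with overlapping ranges. FOSL2 was 1.68-fold lower. The higher count was 10 without cow 3, 2 against steers alone and 8 against cows alone, and 2 genes were lower without steer 1. Of 44 chaperone genes 5 were lower (11.4%) and 4 higher (9.09%), both below the shares of all genes (15.2% and 13.7%). HSPA5, the chaperone of the endoplasmic reticulum, read 1133, 1108 and 1108 against 1436, 1642 and 1977 (1.5-fold lower, adjusted p = 0.00305). HSPB2 was 1.41-fold lower and BAG1 1.35-fold. HSP90AA1 was 1.42-fold lower with a second probe set at 0.57 that was not called, and its call was lost without yak 2. No chaperone stayed called higher without yak 1 or yak 2, and against steers alone 1 was higher and 8 lower. Of 9 clock genes RORA, CSNK1D (1.52-fold) and PER2 (1.92-fold) were higher and CRY1 (1.52-fold) lower. These were 33.3% and 11.1% of the list, against 13.7% and 15.2% of all genes. Of 3 other CSNK1D probe sets 1 was called higher (0.45) and 2 were not called (-0.05 and 0.14), and of 2 other RORA probe sets 1 was called higher (1.01) and 1 not (0.36). Against cows alone PER2 lost its call. CRY1 lost it without steer 2, cow 2, cow 3 or any 1 yak and against either cattle sex alone, and a second gene was lower without steer 1. The hour of slaughter is not given.

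Of 57 splicing factors 7 were higher (12.3%) and 5 lower (8.77%), both shares below those of all genes (13.7% and 15.2%). CELF1, a splicing regulator of muscle, read 1575, 1405 and 811 against 323, 366 and 473 (3.14-fold higher, 1.65 ± 0.21, adjusted p = 0.000652), and PRPF4 was 1.53-fold lower. SRSF6 was 1.76-fold lower, and PRPF31 1.6-fold with a second probe set at 0.16. The higher count was 1 without yak 1, 2 without yak 2, 3 without cow 2, 4 without steer 3 and 11 without yak 3. Of 18 cell cycle genes 4 were higher (22.2% against 13.7% of all genes). CDK2 read 271, 237 and 226 against 99.9, 119 and 142 (1.92-fold higher, adjusted p = 0.000358), the replication helicase chain MCM7 was 1.82-fold higher and MCM3 1.29-fold. Without yak 1 the count was 2, MCM3 being 1 of the genes lost. PLK1 (1.24-fold lower) and CDKN1C (-0.66) were lower, 11.1% against 15.2% of all genes. Neither was called without cow 3 or any 1 yak. Only 1 lower call was left without steer 1, steer 2, steer 3 or cow 2 and against cows alone.

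Among enzymes of monoamines and aldehydes MAOA stood alone as the higher call of 20 (5%), and 5 were lower (25%), against 13.7% and 15.2% of all genes. AOX1, aldehyde oxidase, read 527, 552 and 554 against 934, 1195 and 1606 (2.18-fold lower, adjusted p = 0.000935), and CBR4, a carbonyl reductase, was 2.19-fold lower. ALDH9A1 (-0.68), ALDH1A1 (-0.59) and AOC3 (1.3-fold) were the others. The lower count was 2 without yak 1 or yak 3 and against cows alone, 3 without cow 2, and a second gene was higher without steer 1. Of 24 genes of polyamine, creatine and purine metabolism 7 were lower (29.2%) and 3 higher (12.5%), against 15.2% and 13.7% of all genes. GATM, which makes the precursor of creatine, read 123, 139 and 124 against 191, 330 and 418 (2.24-fold lower, adjusted p = 0.0021). AK4 was 2.05-fold lower, ADSS1 1.87-fold and AZIN1 1.81-fold. No gene stayed called higher without yak 1 or yak 2, and 4 were lower without yak 2.

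**Figure D4:**
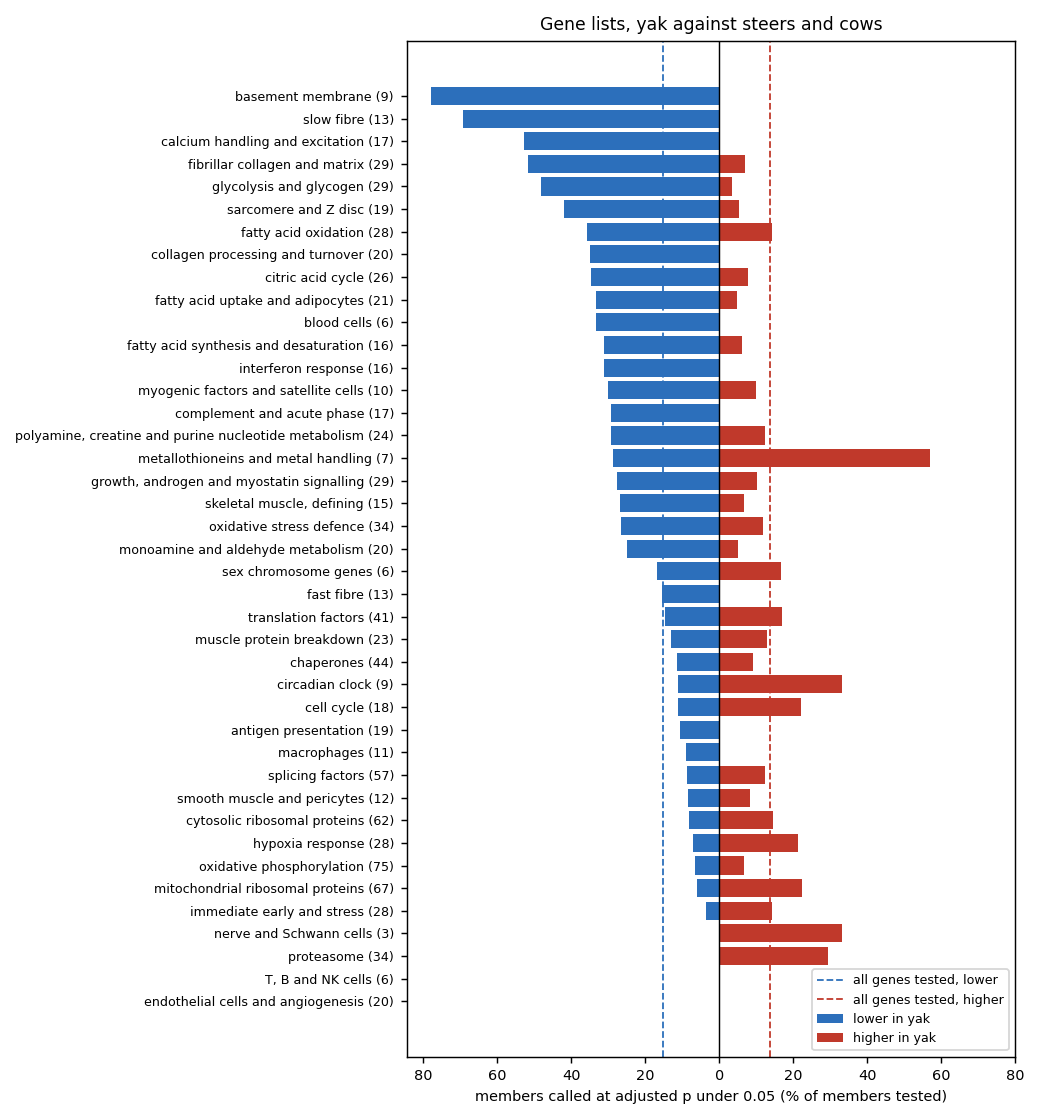
Share of the tested members of each of 41 gene lists called lower (blue, to the left) and higher (red, to the right) in yak, in percent, with the number of members tested in brackets. Dashed lines give the shares over all genes, 15.2% lower and 13.7% higher. Basement membrane (77.8%) and slow fibre (69.2%) have the largest lower shares.

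Calls among immune genes and markers of other cells differed between lists. Of 11 macrophage genes 1, LAPTM5, was lower (9.09% against 15.2% of all genes). It read 113, 142 and 154 against 130, 199 and 280 (1.39-fold, adjusted p = 0.0425). All 11 differed below 0, with a median of -0.48, and the summed intensity was 1755 to 1799 in yak, 2587 to 4181 in steers and 1492 to 2607 in cows. The yak sums thus lay below the steers and within the range of the cows, and 8 genes were lower against steers alone and 0 against cows alone by limma. The count was 0 without steer 2, steer 3, cow 2, yak 1 or yak 2, 3 without cow 3 and 5 without steer 1. Of 17 complement genes 5 were lower (29.4% against 15.2% of all genes). C1S, among them, read 517, 279 and 308 against 667, 764 and 1179 (2.23-fold lower, adjusted p = 0.00647). The others were SERPING1 (1.66-fold, another probe set not called at -0.62), CFD (1.73-fold, not called without yak 1), C4A (1.45-fold, not called against cows alone) and C4BPA (-0.52). Against steers alone 9 were lower.

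Of 16 interferon response genes 5 were lower (31.2% against 15.2% of all genes). They were MX1 (2.45-fold), RSAD2 (2.24-fold), IFI27 (1.4-fold), XAF1 (1.21-fold) and IFI35 (-0.27). MX1 read 29.3, 34.1 and 30.5 in yak and 46.2, 76.4 and 259 in cattle, and RSAD2 34.1, 38.9 and 51.2 against 66.0, 92.5 and 244, so yak values of both were dim. None was called without yak 1 or yak 2 or against steers alone, 1 without cow 2 or cow 3, 2 without steer 1 or yak 3, and 3 without steer 2 or steer 3 and against cows alone, where 1 was higher. The same number was higher without steer 1, cow 3 or yak 1. Centring the arrays on their medians left 2. Of 19 antigen presentation genes 2 were lower (10.5%, below the 15.2% of all genes), TAPBP (1.71-fold, not called without yak 1) and PSMB10 (1.41-fold). That count was 1 without yak 1 and 4 without steer 1 or cow 1 and against steers alone, and 1 gene was higher without yak 2. Of 6 genes of T, B and NK cells none was called by limma, and 1 was lower when p was left unadjusted at 0.05. Without steer 1 there was 1 lower call.

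Of 12 smooth muscle and pericyte genes LMOD1 was higher, at 441, 394 and 468 against 177, 191 and 265 (2.0-fold, adjusted p = 0.000356), and ACTA2 lower (1.91-fold, adjusted p = 0.0301). Each was 8.33% of the list, below the 13.7% higher and 15.2% lower of all genes. The ACTA2 call was lost without steer 2, cow 2, cow 3 or yak 1 and against either cattle sex alone. Of 6 blood genes S100A8 (1.55-fold) and AHSP (1.18-fold) were lower, 33.3% against 15.2% of all genes. Of these 2 calls 1 was left without any 1 of steer 1, steer 2, cow 1, cow 3 and the 3 yak and against either cattle sex alone. Of 3 nerve genes tested S100B was higher (1.55-fold, adjusted p = 0.0474), 33.3% against 13.7% of all genes. The call was lost without steer 1, steer 2, steer 3, cow 1, cow 3, yak 2 or yak 3 and against either cattle sex alone. In this list 1 gene was lower without cow 1. No marker was at 0 on any array.

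XIST, the RNA that coats the inactive X chromosome of females, read 26.4, 23.1 and 27.2 in yak on its 1 tested probe set, 23.6 to 36.2 in steers and 293 to 369 in cows. The yak values lay with the steers. Its call as lower (-1.60, adjusted p = 2.39e-05) came from the cows: against steers alone the difference was -0.17 (adjusted p = 0.339) and against cows alone -3.03. The other 5 XIST probe sets had 9-array means too low to test. On 2 of them cows were bright, at 237 to 384 and 302 to 388, while yak read 13.1 to 17.4 and 6.84 to 8.44 and steers 15.9 to 21.4 and 6.45 to 8.59. RPS4Y1, a ribosomal protein gene, was 1.2-fold higher, a call lost without yak 1 or yak 2, and another of its probe sets was not called (0.02). The called probe set read 6346 to 7139 in steers and 6129 to 6846 in cows, so it did not separate the cattle sexes.

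Buffalo muscle on the same arrays shows which of these values were also far from a second species. Between yak and buffalo 6692 probe sets differed (46.4%), 3578 higher in yak (24.8%) and 3114 lower (21.6%), and between buffalo and the same cattle 7453 (51.7%). The comparisons of yak and of buffalo with cattle share the 6 cattle arrays, so values are given side by side. MAOA read 83.7, 96.2 and 112 in buffalo, far below yak (3.22, adjusted p = 1.27e-05), and NMRK2 7468, 8892 and 9528, far above (-4.35, adjusted p = 2.66e-07). MYL3 read 6619, 5413 and 5956 in buffalo (-4.31, adjusted p = 2.29e-05) and DLC1 268, 323 and 345 (-2.77, adjusted p = 1.22e-07). In these 4 genes yak stood apart and buffalo lay within or beside the cattle range.

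Other genes lay differently. SLC25A33 read 1193, 1195 and 1044 in buffalo, within the yak range (0.06, adjusted p = 0.85). CIDEC, at 23.7, 26.6 and 77.0 (-0.09, adjusted p = 0.908), and FRZB, at 61.1, 49.0 and 50.4 (-0.09, adjusted p = 0.882), were as dim in buffalo as in yak. MSRA was between, at 845, 682 and 597, and yak was lower than buffalo by 0.99 on the log2 scale (adjusted p = 0.000112). COL1A2, COL6A1 and COL4A1 did not pass between yak and buffalo (-0.15, 0.02 and 0.32). The same was true of SPARC (0.42, adjusted p = 0.16). For 5 genes the buffalo mean lay on the far side of cattle from yak, as the plot of 10 genes on all 15 arrays shows. For KIF22 among them the buffalo and cattle ranges overlapped.

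**Figure D5:**
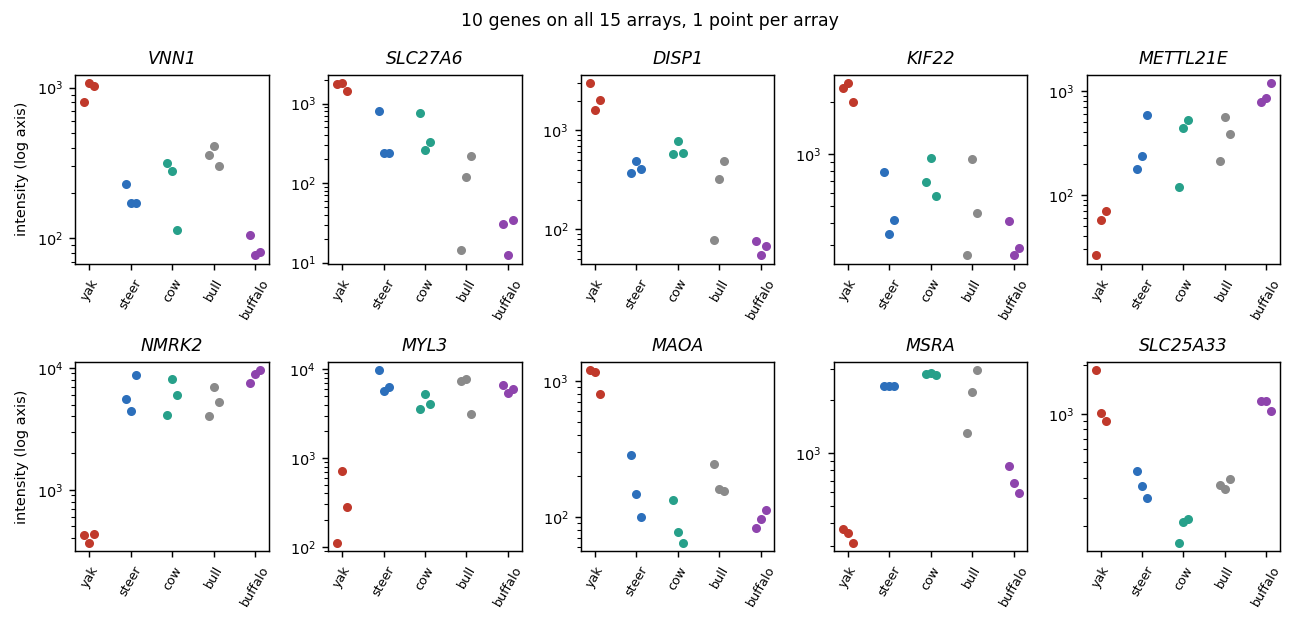
Intensity on a log axis of 10 genes on all 15 arrays, 1 point per array, in yak, steers, cows, bulls and buffalo. Upper row, the 5 named genes for which yak and buffalo differ from cattle in opposite directions. Lower row, 5 genes picked after their values were seen: NMRK2, MYL3 and MAOA, where yak stands apart from every other group, and MSRA and SLC25A33, where buffalo also differs from cattle.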

How the data were processed

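Per the labels, total RNA from frozen muscle was extracted with Trizol, labelled with biotin and hybridised to 1 Affymetrix bovine array per animal. The deposited values are linear intensities summarised by the authors, and for the software and any normalisation the sources used here give no name. The 112 control probe sets were set aside, 16 was added before taking log2, and 9607 probe sets whose mean did not pass the 40th percentile (intensity 67.8) were not tested. No further normalisation was made.

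Using limma 3.58.1 in R 4.3.3, group means of 9 arrays were estimated (empirical Bayes with a trend, 6 residual degrees of freedom), and yak was set against the mean of the steer and cow means. Yak and buffalo were compared on 12 arrays. Adjusted p are two-sided Benjamini-Hochberg values over 14409 probe sets, with a threshold of 0.05. The steps were tested on simulated data.

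The platform annotation gave 1 symbol for 13292 probe sets, several for 86 and none for 10638, and 13263 matched the current gene table by Entrez identifier. Each of 7101 genes was represented by its brightest tested probe set, and 1639 genes had several. Named genes were the 15 largest called differences each way without overlap, and from each of 41 lists at most 4 called members, taken by smallest p, leaving out 27 called genes known only by a locus number. XIST, HBB, MB, EPAS1, HIF1A, VEGFA and MAOA were always given, and remaining members were named to complete a list's calls or, where not called, after their values were seen. The members and lists were chosen with earlier results of these data known. Of 1358 list genes 938 were tested and 290 called. The labels do not pair arrays by replicate number, so the main fit has no replicate block, and what same-numbered arrays may share is not given. Alternatives covered the value added, the filter, scaling, model settings, cattle groups, the arrays in the fit, the replicate block and leaving out each array.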

Additional observations from a re-analysis of the deposited data

Results flagged for a closer look

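For 5 named genes yak and buffalo differed from the same steers and cows in opposite directions. The difference between yak and buffalo, from limma on 12 arrays, joins the sizes of those opposite differences from cattle. Because the 5 genes were picked for these opposite directions, a small adjusted p between yak and buffalo follows from the choice. The values below therefore give the size of the gap and are not a separate test. SLC27A6, the fatty acid transport protein, was higher in yak than in buffalo by 5.37 on the log2 scale (adjusted p = 4.27e-06), with buffalo at 30.5, 12.3 and 34.1 against a cattle median of 293. These buffalo values are dim, so the size is uncertain, and less RNA and weaker binding of buffalo RNA to cattle probes cannot be told apart in the genes low in buffalo. DISP1 was higher by 4.71 (adjusted p = 5.74e-08), with buffalo at 75.4, 54.6 and 67.9. VNN1 was higher by 3.24 (adjusted p = 6.02e-06), with buffalo at 106, 77.1 and 81.7, and KIF22 by 2.81 (adjusted p = 1.43e-05). For KIF22 buffalo read 409, 261 and 290, overlapping the 348 to 952 of cattle (buffalo minus cattle -0.88, limma adjusted p = 0.00999). The muscle methyltransferase METTL21E went the other way, at -3.88 (adjusted p = 0.000114), with buffalo at 783, 866 and 1192 above every cattle array.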

How the results depend on the processing

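The probe sets called between yak and cattle numbered 2353 to 4117 when 1 array was left out, 991 to 1866 higher and 1310 to 2251 lower, and the called list genes 182 to 315. All 4 low ends came without yak 1 or yak 2. Between yak and buffalo the lower calls were 5673 with no filter on dim probe sets, as more probe sets were tested. Same-numbered arrays deviated together with correlations of -0.0861 to 0.137 over 9 pairs, 3 of them above 0.1, and 6 of 9 arrays correlated best with their own number. With the replicate number as a block 3974 probe sets were called, 1816 higher and 2158 lower, and 153 of 156 named genes passed. Quantile normalization gave 2099 higher and 2025 lower, 50.9% of calls higher against 45.7%. Of 156 named genes 110 passed in every one of 23 other settings that tested them, 129 passed without each array in turn, and 0 changed direction. Many list counts moved by over 1.5 times without 1 array or against either cattle sex alone, as given with the lists. With all 15 arrays in the fit, bulls included in the spread, 1443 were higher and 1675 lower. The upstream normalisation, the sex of the yak and binding of yak RNA to cattle probes are the main limits, and there are no detection calls.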

Other observations

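Some large differences outside the naming rule, picked after their values were seen, spread widely among the yak. DNAJB1, a heat-inducible co-chaperone, read 5403, 1753 and 685 in yak against 193, 360 and 1090 as the lowest, median and highest of cattle (2.25 ± 0.61, adjusted p = 0.0217 by limma), so yak 3 lay within the cattle range. NR4A2, a nuclear receptor of the early response, read 245, 998 and 444 against 24.9, 89.9 and 332, and here yak 1 was the lowest. EIF4EBP1, which holds back the cap-binding translation factor, read 3364, 2550 and 1493 against 496, 854 and 1084, with no overlap (1.52 ± 0.27, adjusted p = 0.00356). MT1A read 207, 2194 and 1315 against 98.7, 237 and 548, again with yak 1 lowest, as it was for MT2A, FABP3 and LPL.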
